A study of Mus musculus with 12 samples.

Results

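A set of 10 genes that bind, move or store zinc and iron was followed in ATDC5 cells with and without knockdown of Ddx5, an RNA helicase. The genes were the metallothioneins Mt1 and Mt2, the metal-sensing transcription factor Mtf1, the zinc importers Slc39a8 and Slc39a14, the zinc exporter Slc30a1, the ferritin chains Fth1 and Ftl1, the transferrin receptor Tfrc and the iron exporter Slc40a1. They were taken by symbol, and all 10 were found among the 46731 genes of the table. ATDC5 is a mouse teratocarcinoma line that can be driven towards cartilage, and no genotype other than the integrated hairpin cassette is labelled. A lentivirus had carried into all cells either a control hairpin (shRNA-NC, labelled wildtype) or a hairpin against Ddx5 (shRNA-Ddx5), and the cells had been selected with puromycin. The knockdown was described as 1 stable line, so its effect and other differences between the lines cannot be told apart. RNA was taken at 6 h from 3 biologically independent cultures per group, either unstimulated (in medium) or with IL-1β at 5 ng/ml plus TNF-α at 25 ng/ml, cytokines used to imitate joint inflammation. This gave 4 groups and 12 libraries.

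Metallothioneins are small cysteine-rich proteins that hold zinc and copper, and their genes are switched on by zinc through MTF1 bound at metal response elements. ZIP8, the product of Slc39a8, brings zinc into chondrocytes and has been placed upstream of MTF1 and matrix-degrading enzymes in osteoarthritis, whereas ZIP14, the product of Slc39a14, carries zinc, manganese and iron and is known as an inflammation-induced importer in the liver. Iron enters cells on transferrin through TFRC, is kept in ferritin shells built of the heavy chain FTH1 and the light chain FTL1, and leaves through ferroportin, the product of Slc40a1. Iron regulatory proteins bind a hairpin, the iron response element, to hold back translation of ferritin and ferroportin and to stabilize the transferrin receptor RNA.

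The values are FPKM, fragments scaled by gene length and library size, as deposited by the authors. Every value came out as a whole number of fragments (within 0.1 fragment), with 14119199 to 19276520 fragments per library. Differences are between group means of log2(FPKM + 1), given with the standard error (SE). Changes of weakly expressed genes come out too small on it, most at around 1 FPKM or less and still to some extent at several FPKM. limma was fitted to the 12368 genes that reached 1 FPKM in 3 or more libraries, and a gene was called when the Benjamini-Hochberg adjusted p was below 0.05. Of the 10 genes 9 passed this filter, and Slc40a1 did not. Mt2 passed only through its cytokine groups and Slc39a8 only through shRNA-NC in medium, with FPKM of 1.00 to 1.29 there. Ddx5 was at 0.323 times the control in medium and 0.321 times with cytokines, and every shRNA-Ddx5 library lay below every shRNA-NC library. Of 12 cartilage-lineage markers 5 passed the filter (Sox9, Runx2, Sox5, Col2a1 and Col11a1), while Acan, Matn1, Hapln1 and Col9a1 had at most 17 fragments in any library, and of 5 leukocyte markers only Cd68 rose above 3 fragments. In bulk RNA, fewer cells of a kind and less RNA per cell cannot be told apart.

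The promoters of the metallothioneins are shown for the cores of their metal response elements, the sites known for MTF1. The letters searched were TGCACNC or TGCGCNC on both strands, in RefSeq windows of 250 bases before and 50 bases after the start. Windows were given for 8 of the 10 genes (11 windows) and each matched GRCm39 at a single place. Cores are in capitals and positions count from the RefSeq start, negative upstream. Annotated starts disagree, so upstream here refers to that start alone. The gene rows of Mt1 (from 94905214), Slc30a1 and Slc39a8 begin before the stretch or sites given here, which therefore lie inside those rows. Another annotation, GENCODE, begins Mt2 (at 94898819) and Tfrc before their stretch or sites. The stretch of Mt1 is chr8:94905467-94905709 on the plus strand and holds the core at -23. The 30 bases from chr8:94905717-94905746 hold the cores at 3 and 21. The stretch of Mt2 is chr8:94898996-94899131 on the plus strand and holds the cores at -223 and -128, and the short sites at chr8:94899185-94899213 and chr8:94899239-94899267 hold those at -50 and 5, which read on the minus strand.
Mt1 upstream: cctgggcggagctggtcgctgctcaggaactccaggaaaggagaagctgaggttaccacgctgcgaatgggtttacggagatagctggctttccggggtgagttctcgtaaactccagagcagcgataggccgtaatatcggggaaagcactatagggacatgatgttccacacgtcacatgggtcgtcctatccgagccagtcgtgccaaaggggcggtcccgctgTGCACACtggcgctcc
Mt1 start: tcTGCACTCcgcccgaaaagTGCGCTCggc
Mt2 upstream: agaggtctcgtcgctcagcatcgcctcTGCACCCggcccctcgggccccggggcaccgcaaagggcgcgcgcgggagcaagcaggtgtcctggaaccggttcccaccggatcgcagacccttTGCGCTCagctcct
Mt2 site at -50: ggggggagggcGTGTGCAggctctgtccc
Mt2 site at 5: gaattcgggtcGTGCGCAggcccaggggc
The exporter gene Slc30a1 had a core at -43 (chr1:191638839-191638867) and another at 31 (chr1:191638912-191638940), and Slc39a8 had 1 at -19 of its second listed start (chr3:135531388-135531416), all on the plus strand of the genome with the core read from the minus strand.
Slc30a1 site at -43: acgggggttccGAGTGCAaagcaaagttt
Slc30a1 site at 31: gcctccgggccGAGCGCAgtcgccgcgga
Slc39a8 site at -19: ttatctctaaaGGGTGCAgggcctgatct
At least 1 core was in 25.7% of the 32851 mouse windows of this length, and 3 or more in 1.97%. Mt1 held 3 and Mt2 held 4. Tfrc held an overlapping pair at -53 and -50 of its first start. The windows of Fth1, Ftl1 and Mtf1 held none. The antioxidant response element core TGACNNNGC was matched in Mt2 at -79, in Slc30a1 at -82 and in the first window of Slc39a8 at -35, against 12.4% of all windows. GGGANNTTC, a form of the NF-κB site, was matched in none of the 11 windows, against 3.94% of all. These matches describe letters and not binding.

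The iron genes share the iron response element in their transcripts. It was searched as a C, 5 bases, the loop CAGTGN with N not G, and 5 bases that pair with the first 5. It was found in the 5′ untranslated region of Fth1 (chr19:9960096-9960124, plus strand), Ftl1 (chr7:45109203-45109231, minus strand) and Slc40a1 (chr1:45964625-45964653, minus strand), and at 4 places in the 3′ untranslated region of Tfrc, of which the first is chr16:32450037-32450065 and the last chr16:32450528-32450556, plus strand. The loop is in capitals.
Fth1: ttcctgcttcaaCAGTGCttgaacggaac
Ftl1: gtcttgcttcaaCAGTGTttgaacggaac
Slc40a1: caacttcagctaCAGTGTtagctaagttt
Tfrc first: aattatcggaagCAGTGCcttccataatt
Tfrc last: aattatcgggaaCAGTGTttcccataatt
None was found in transcripts of the 6 zinc genes. Of 21575 protein-coding genes in GENCODE, 36 (0.167%) had such an element in the 5′ and 124 (0.575%) in the 3′ untranslated region. The element acts largely on translation and RNA stability, and only RNA was measured.

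Mt1 (gene 17748, chr8:94905214-94906955) fell on knockdown in medium, rose with cytokines in both lines, and overlapped between the lines once cytokines were present. Its FPKM in medium was 38.3, 38.7 and 46.1 in shRNA-NC and 23.5, 21.0 and 22.6 in shRNA-Ddx5 libraries. With cytokines it was 67.7, 52.9 and 49.1 in shRNA-NC and 57.5, 61.6 and 54.0 in shRNA-Ddx5. Every shRNA-Ddx5 library in medium lay below every other library, and the 2 cytokine groups overlapped. In medium the knockdown difference was -0.84 (SE 0.12, limma with Benjamini-Hochberg adjusted p = 1.96e-04). With cytokines it was 0.04 (adjusted p = 0.812). Cytokines raised Mt1 in both lines, by 0.44 in shRNA-NC (adjusted p = 0.0142) and by 1.33 in shRNA-Ddx5 (adjusted p = 7.55e-06). These rises were themselves different, with an interaction of 0.88 (SE 0.17, adjusted p = 0.00883). The call in shRNA-NC was lost without shRNA-NC replicate 2 (0.41, adjusted p = 0.0534), with quantile normalization and with only those 6 libraries.

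Mt2 (gene 17750, chr8:94899246-94900195), the neighbour of Mt1 on chromosome 8, was close to silent in medium and present with cytokines in both lines. In medium 11, 1 and 2 fragments were found in shRNA-NC and 1, 0 and 0 in shRNA-Ddx5 libraries. With cytokines there were 53, 49 and 46 fragments in shRNA-NC (FPKM 5.71, 4.70 and 4.40) and 38, 41 and 49 in shRNA-Ddx5 (4.13, 4.64 and 5.60). Every cytokine library lay above every medium library, and the lines overlapped in each medium. The difference was 2.10 (SE 0.19) in shRNA-NC and 2.48 (SE 0.19) in shRNA-Ddx5 cells. Mt2 entered the test only through its cytokine libraries, so these are given as sizes. With no filter on low values the limma adjusted p was 1.18e-04 and 2.47e-05. In fragments scaled for depth, the ratio of cytokines to medium was 10.9 in shRNA-NC (95% exact interval 6.30 to 20.4) and 140 in shRNA-Ddx5 (24.6 to 5554), where the medium group held a single fragment. These intervals cover counting error only. The knockdown difference was -0.42 in medium (adjusted p = 0.0939), a call gained with a pseudocount of 0.1 (-1.67) and without shRNA-NC replicate 2 (-0.59). With cytokines the ratio of the lines was 0.973 (0.762 to 1.24).

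**Figure D1:**
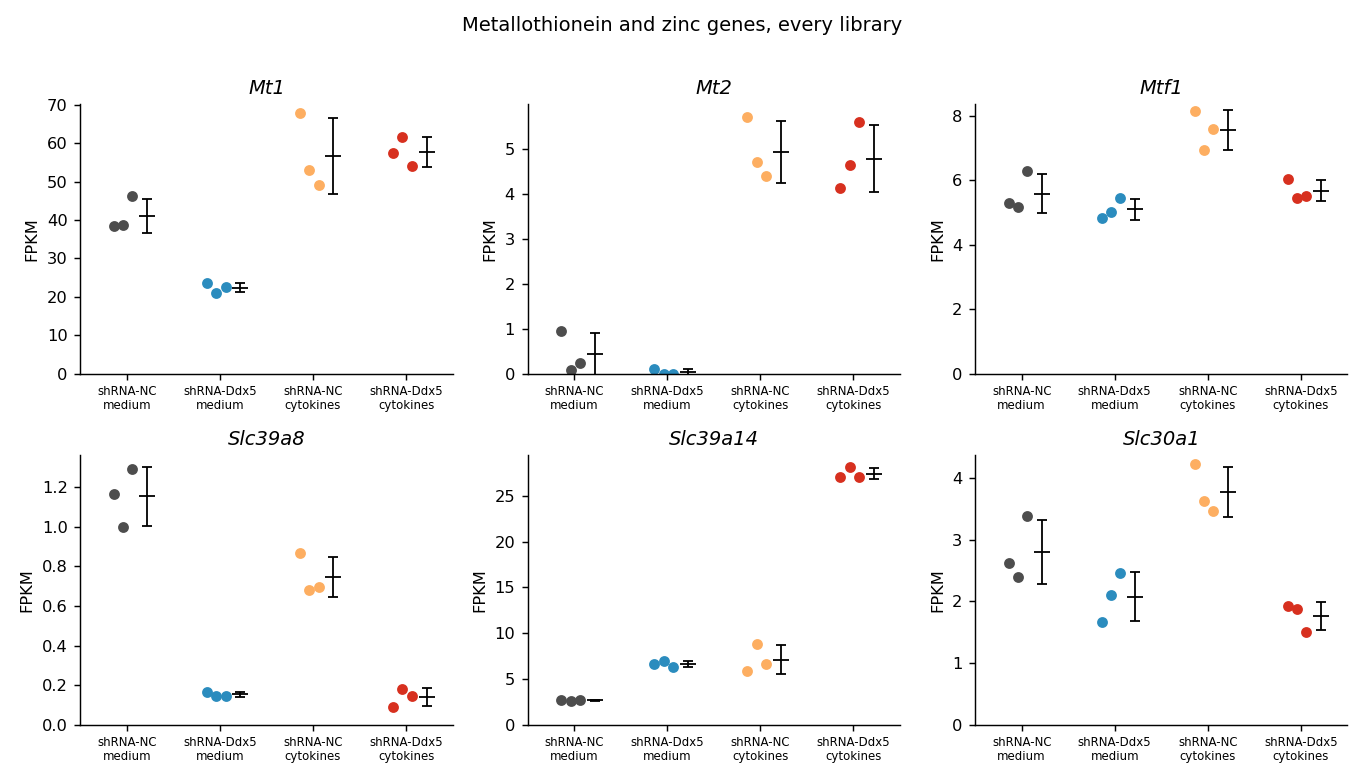
FPKM of the 6 zinc genes in every library (points, 3 per group) with the group mean and SD (bars, the lower arm cut at 0 for Mt2), on linear axes that start at 0. Mt1 is lowest in shRNA-Ddx5 in medium, Mt2 is near 0 in both medium groups, Slc39a8 is at 0.180 or less in all 6 shRNA-Ddx5 libraries, and Slc39a14 is at 27.1 to 28.2 in shRNA-Ddx5 with cytokines.

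Within each library with cytokines, the Mt2 value was a small and similar share of the Mt1 value per length in both lines. For shRNA-NC the ratio was 0.0876 ± 0.0029 (SD, n = 3), and for shRNA-Ddx5 it was 0.0836 ± 0.017 (SD, n = 3). The log2 difference of the ratio was -0.09 (exact two-sided permutation p = 0.6, smallest possible 0.1). The other metallothioneins of the cluster, Mt3 and Mt4, had at most 4 and 0 fragments in any library and were not tested.

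Mtf1 (gene 17764, chr4:124696342-124743593) rose with cytokines in shRNA-NC and was lower in shRNA-Ddx5 than in shRNA-NC when cytokines were present. Its FPKM was 5.28, 5.18 and 6.28 in shRNA-NC and 4.81, 5.02 and 5.45 in shRNA-Ddx5 in medium, and 8.16, 6.92 and 7.59 against 6.04, 5.45 and 5.52 with cytokines. The shRNA-NC libraries with cytokines lay above all others, and the lines overlapped in medium. Cytokines raised it by 0.38 in shRNA-NC (SE 0.09, limma adjusted p = 0.00766). In shRNA-Ddx5 the value was 0.13 (adjusted p = 0.317). With cytokines the knockdown difference was -0.36 (SE 0.09, adjusted p = 0.0073), in medium it was -0.11 (adjusted p = 0.349), and the interaction was -0.25 (adjusted p = 0.266), so that the difference between these effects missed the threshold. An oppositely transcribed gene, 1110065P20Rik, overlaps the end of Mtf1 and had 137 to 444 fragments per library against 604 to 1089 for Mtf1, and the strand setting of the counting is not given in the sources used here.

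The importers differed in opposite directions between the lines. Slc39a8 (gene 67547, chr3:135522644-135594333) was low throughout, with FPKM of 1.17, 1.00 and 1.29 in shRNA-NC and 0.167, 0.145 and 0.145 in shRNA-Ddx5 in medium. With cytokines it was 0.866, 0.679 and 0.696 against 0.0904, 0.180 and 0.143. Both shRNA-Ddx5 groups, with 12 to 23 fragments per library, lay below both shRNA-NC groups, with 102 to 193. The mean was 0.132 times that of shRNA-NC in medium and 0.184 times with cytokines. The knockdown difference was -0.90 (SE 0.09) in medium and -0.62 (SE 0.09) with cytokines. Since only the shRNA-NC libraries in medium took the gene past the filter, these are given as sizes, and with no filter on low values the limma adjusted p was 1.55e-05 and 1.19e-04. With cytokines the mean in shRNA-NC was 0.647 times that in medium (-0.30). This too is given as a size, since the same shRNA-NC libraries in medium are its high group. With no filter the limma adjusted p was 0.0116. The filtered value of 0.0259 rose above 0.05 without shRNA-NC with cytokines replicate 2 (0.0685) or replicate 3 (0.0757). It also did so with a pseudocount of 0.1 (0.127), with quantile normalization and with only the 6 libraries compared. In shRNA-Ddx5 the cytokine difference was -0.02 (adjusted p = 0.903). The interaction was 0.28, again given as a size, since the shRNA-NC libraries in medium enter it. Without any 1 of these libraries the gene no longer passed the filter.

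Slc39a14 (gene 213053, chr14:70540916-70588873, minus strand) rose with the knockdown, with the cytokines and further with both. Its FPKM was 2.66, 2.59 and 2.72 in shRNA-NC and 6.61, 6.93 and 6.35 in shRNA-Ddx5 in medium. With cytokines it was 5.83, 8.84 and 6.62 in shRNA-NC and 27.1, 28.2 and 27.1 in shRNA-Ddx5. The groups shared no values except that shRNA-Ddx5 in medium and shRNA-NC with cytokines overlapped. The knockdown raised the mean 2.49-fold in medium (1.06, SE 0.11, limma adjusted p = 2.85e-05) and 3.87-fold with cytokines (1.83, SE 0.11, adjusted p = 8.27e-07). Cytokines raised it 2.67-fold in shRNA-NC (1.13, adjusted p = 2.38e-05) and 4.14-fold in shRNA-Ddx5 (1.90, adjusted p = 2.32e-07). The interaction was 0.77 (SE 0.16, adjusted p = 0.0133), and without shRNA-NC with cytokines replicate 2, the highest of its group, it was 0.92 (adjusted p = 6.38e-04). Adding 1 shrinks the rise from the lower shRNA-NC values more than that in shRNA-Ddx5, which enlarges this interaction. The Slc39a14 row counts the whole gene, so splice forms of the importer are not separated.

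Slc30a1 (gene 22782, chr1:191638810-191645359), which encodes the exporter ZnT1 of the cell surface, was lower in the knockdown line when cytokines were present. Its FPKM was 2.62, 2.40 and 3.39 against 1.67, 2.11 and 2.46 in medium, and 4.23, 3.62 and 3.47 against 1.92, 1.88 and 1.50 with cytokines, shRNA-NC first. The lines overlapped in medium and were apart with cytokines. The difference with cytokines was -0.79 (SE 0.13, limma adjusted p = 4.92e-04), a mean of 0.468 times the control. In medium it was -0.30 (adjusted p = 0.0719), which passed the threshold when libraries were scaled to the sum of fragments (-0.38) and without shRNA-Ddx5 replicate 3 (-0.39). The cytokine difference was 0.33 in shRNA-NC (adjusted p = 0.0654) and -0.15 in shRNA-Ddx5 (adjusted p = 0.425), and the interaction was -0.48 (adjusted p = 0.132). The former passed with voom precision weights (0.45), without shRNA-NC replicate 3 (0.44) and without shRNA-Ddx5 replicate 1. The antisense transcript 1700034H15Rik had 1 to 13 fragments per library.

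Fth1 (gene 14319, chr19:9957964-9962475), the ferritin chain that oxidizes iron for storage, rose in all 4 comparisons. Its FPKM was 716, 717 and 733 in shRNA-NC and 1435, 1197 and 1304 in shRNA-Ddx5 in medium. With cytokines it was 1068, 1071 and 869 in shRNA-NC and 2065, 2395 and 2212 in shRNA-Ddx5. No groups overlapped, and their order was shRNA-NC, shRNA-NC with cytokines, shRNA-Ddx5 and shRNA-Ddx5 with cytokines. The knockdown raised the mean 1.82-fold in medium (0.86, SE 0.12, limma adjusted p = 1.47e-04) and 2.22-fold with cytokines (1.15, SE 0.12, adjusted p = 1.83e-05). Cytokines raised it by 0.47 in shRNA-NC (adjusted p = 0.00977) and by 0.76 in shRNA-Ddx5 (adjusted p = 4.96e-04). The former call was lost with no filter on low genes (adjusted p = 0.0508) and with quantile normalization (0.27, adjusted p = 0.0675). The interaction was 0.30 (adjusted p = 0.307).

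Ftl1 (gene 14325, chr7:45107368-45109310, minus strand), the light chain that helps to lay down the iron core, passed the threshold in none of the 5 comparisons. Its FPKM was 3226, 2800 and 2081 in shRNA-NC and 2929, 1868 and 2034 in shRNA-Ddx5 in medium, and 3059, 2933 and 3017 against 2155, 2442 and 2212 with cytokines. The lines overlapped in medium, where replicates differed widely within each line, and were apart with cytokines. The knockdown difference was -0.25 (SE 0.19, limma adjusted p = 0.301) in medium and -0.41 (SE 0.19, adjusted p = 0.104) with cytokines. Both passed with quantile normalization (-0.57 and -0.48), and the second also with only its 6 libraries and without shRNA-Ddx5 replicate 1. The cytokine differences were 0.18 (adjusted p = 0.507) and 0.02 (adjusted p = 0.95).

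The ferritin chains were therefore set against each other within each library, a ratio that does not depend on the scaling between libraries. Ftl1 to Fth1 in FPKM was 4.51, 3.90 and 2.84 in shRNA-NC and 2.04, 1.56 and 1.56 in shRNA-Ddx5 in medium. With cytokines it was 2.86, 2.74 and 3.47 against 1.04, 1.02 and 1.00. Every shRNA-Ddx5 library lay below every shRNA-NC library in both media. The log2 difference of the ratio was -1.11 in medium and -1.56 with cytokines (exact two-sided permutation p = 0.1 each, the smallest that 3 against 3 allows). With cytokines it fell by 0.74 in shRNA-Ddx5 with no overlap (exact permutation p = 0.1) and was -0.29 in shRNA-NC (exact permutation p = 0.3). Ferritin genes have many processed copies. The Fth1 row held 100% of the fragments of 10 rows whose symbols begin with Fth or Ftmt, the other rows having none. The Ftl1 row held 99.1% of those of 3 rows whose symbols begin with Ftl. How fragments matching several copies were counted is not given in the sources used here, so both levels are uncertain to that extent.

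**Figure D2:**
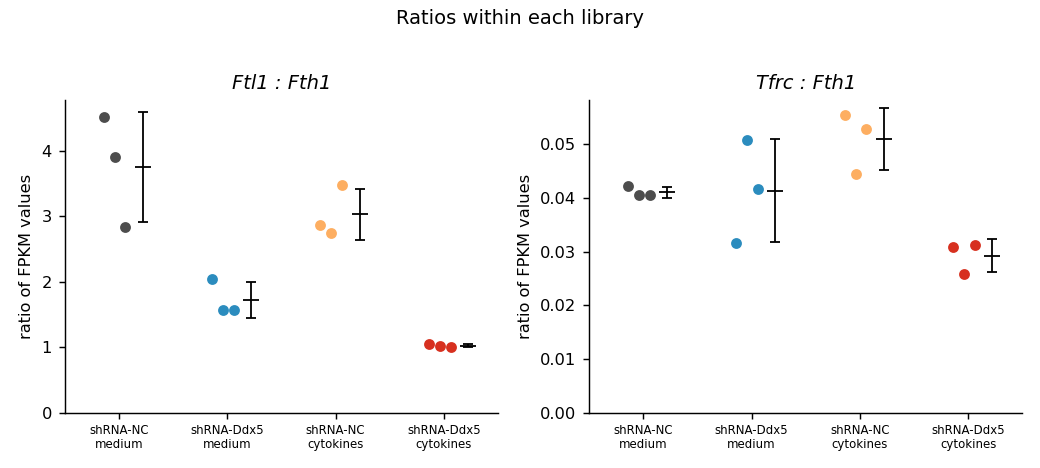
Ratio of Ftl1 to Fth1 (left) and of Tfrc to Fth1 (right), each as FPKM over FPKM within a library (points, 3 per group) with group mean and SD, on linear axes that start at 0. The Ftl1 to Fth1 ratio is at 1.00 to 1.04 in shRNA-Ddx5 with cytokines against 2.74 to 3.47 in shRNA-NC with cytokines.

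Tfrc (gene 22042, chr16:32427714-32451612), the entry port for transferrin-bound iron, was lowest in shRNA-NC in medium. Its FPKM was 30.2, 29.0 and 29.7 in shRNA-NC and 45.2, 60.8 and 54.4 in shRNA-Ddx5 in medium, and 59.3, 47.6 and 46.0 against 63.6, 61.7 and 69.0 with cytokines. The shRNA-NC libraries in medium lay below all 9 others, shRNA-Ddx5 in medium and shRNA-NC with cytokines overlapped, and shRNA-Ddx5 with cytokines lay above all others. The knockdown raised Tfrc 1.80-fold in medium (0.82, SE 0.12, limma adjusted p = 2.14e-04) and cytokines raised it 1.72-fold in shRNA-NC (0.75, adjusted p = 5.96e-04). The knockdown difference with cytokines was smaller (0.35, adjusted p = 0.0312). This last call was lost without shRNA-NC with cytokines replicate 2 (adjusted p = 0.0938) or 3 (0.114) and without shRNA-Ddx5 with cytokines replicate 1 (0.0668), 2 (0.0521) or 3 (0.103), and also with no filter (0.0599), quantile normalization (0.19, adjusted p = 0.267) and scaling to the sum of fragments (0.29, adjusted p = 0.0605). Cytokines in shRNA-Ddx5 gave 0.28 (adjusted p = 0.102), which passed without shRNA-Ddx5 replicate 2 (0.38). The interaction was -0.47 (adjusted p = 0.11), which passed without shRNA-Ddx5 replicate 1 (-0.59).

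Set against storage, the uptake RNA overlapped between the lines in medium and was lower in shRNA-Ddx5 with cytokines. In medium the Tfrc to Fth1 ratio of shRNA-NC was 0.0410 ± 0.0010 (SD, n = 3), within the range of shRNA-Ddx5 at 0.0413 ± 0.0096 (SD, n = 3). The log2 difference was -0.02 (exact two-sided permutation p = 0.9). With cytokines the ratio was 0.0509 ± 0.0058 (SD, n = 3) against 0.0292 ± 0.0030 (SD, n = 3), with no overlap. The log2 difference was -0.80 (exact permutation p = 0.1, the smallest possible). The ratio moved by 0.31 with cytokines in shRNA-NC and by -0.48 in shRNA-Ddx5 (exact permutation p = 0.1 each).

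Slc40a1 (gene 53945, chr1:45947230-45965690, minus strand), the known iron exporter of vertebrate cells, was under the filter in every library. It had 35, 25 and 33 fragments in shRNA-NC and 15, 7 and 29 in shRNA-Ddx5 in medium, and 17, 13 and 17 against 6, 4 and 4 with cytokines. The highest FPKM was 0.630 in shRNA-NC in medium, and shRNA-Ddx5 with cytokines, at 0.0721 to 0.104, lay below all other libraries. In fragments scaled for depth the knockdown ratio was 0.584 (95% exact interval 0.407 to 0.831) in medium and 0.335 (0.170 to 0.619) with cytokines. The cytokine ratio was 0.521 (0.359 to 0.748) in shRNA-NC and 0.299 (0.153 to 0.549) in shRNA-Ddx5. These intervals pool the libraries of a group and cover counting error only, not the spread between cultures. Across replicates the knockdown in medium gave an exact two-sided permutation p = 0.2 and the other 3 comparisons p = 0.1, the smallest possible. With no filter, limma gave -0.23, -0.21, -0.25 and -0.23 in these 4 comparisons (adjusted p = 0.118 to 0.167), so that the lower values of Slc40a1 passed no test across replicates. Neither test could readily pass here, since the permutation p cannot go below 0.1 and log2(FPKM + 1) shrinks changes at this level. No conclusion is drawn from these misses.

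**Figure D3:**
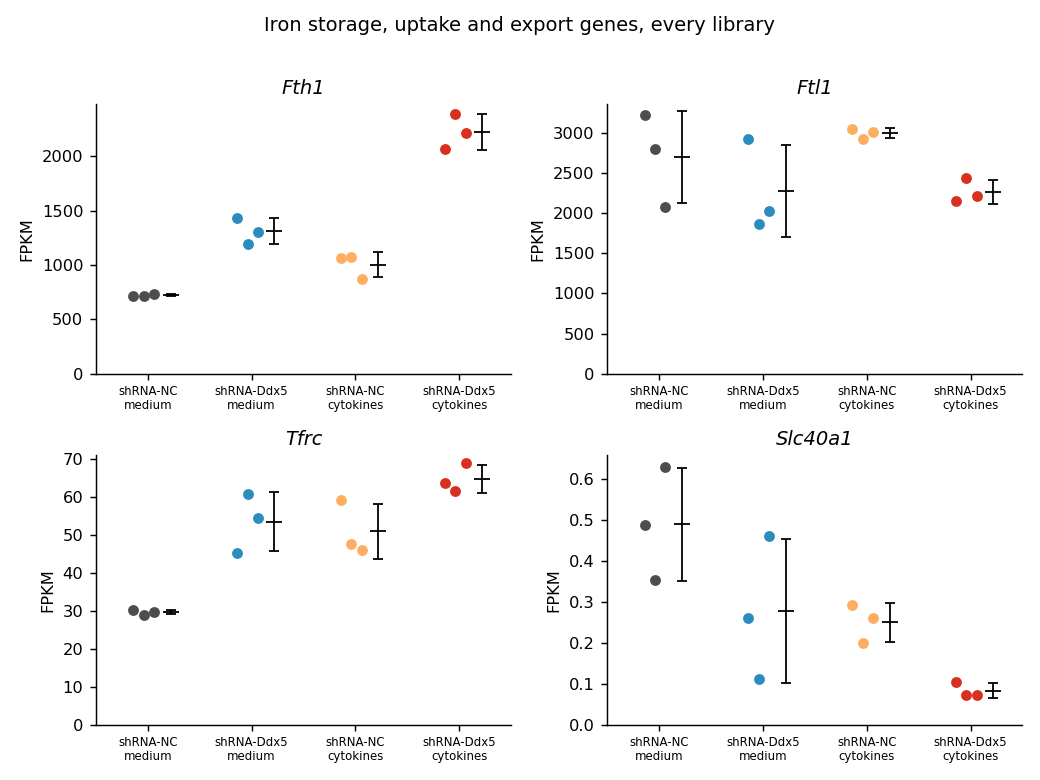
FPKM of the 4 iron genes in every library (points, 3 per group) with the group mean and SD, on linear axes that start at 0. Fth1 groups do not overlap and end at 2065 to 2395 in shRNA-Ddx5 with cytokines, Ftl1 groups overlap in medium, and Slc40a1 stays below 1 FPKM.

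Over the 9 tested genes, the knockdown in medium gave 3 calls up and 2 down, where 47% of all tested genes were called, 25.3% up and 21.7% down. With cytokines the knockdown gave 3 up and 3 down, against 45.6% of all genes, 23.5% up and 22.1% down. Cytokines in shRNA-NC gave 6 up and 1 down, against 33.8% of all genes, 18.6% up and 15.2% down. In shRNA-Ddx5 they gave 4 up and 0 down, against 27% of all genes, 13.5% up and 13.5% down. Of the 9 genes, 0 fell there at an unadjusted limma p below 0.05, and 0 were called down with voom. The interaction was called up for 2 and down for 0, against 8.21% of all genes, 3.46% up and 4.75% down. Slc30a1 and Tfrc were negative in it at an unadjusted limma p below 0.05, and 0 genes were called down with voom. The counts hold Mt2 and Slc39a8, which passed the filter only through their high groups, and so support nothing about the set. The median difference over all tested genes was between -0.01 and 0.03 in every comparison. The summed FPKM of the cartilage markers, 51.3 to 56.3 in shRNA-NC and 49.7 to 50.0 in shRNA-Ddx5 in medium, was 17.3 to 23.9 and 17.0 to 17.3 with cytokines. The sum hides unlike members. On knockdown the mean FPKM of Col2a1, the main cartilage collagen, was 0.899 against 12.4 in medium and 0.779 against 6.33 with cytokines, whereas Col11a1 was at 4.78 against 0.897 and 3.04 against 0.284, and Runx2 at 17.0 against 10.6 and 6.32 against 5.12. The part of these markers in the knockdown and cytokine differences was not tested.

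**Figure D4:**
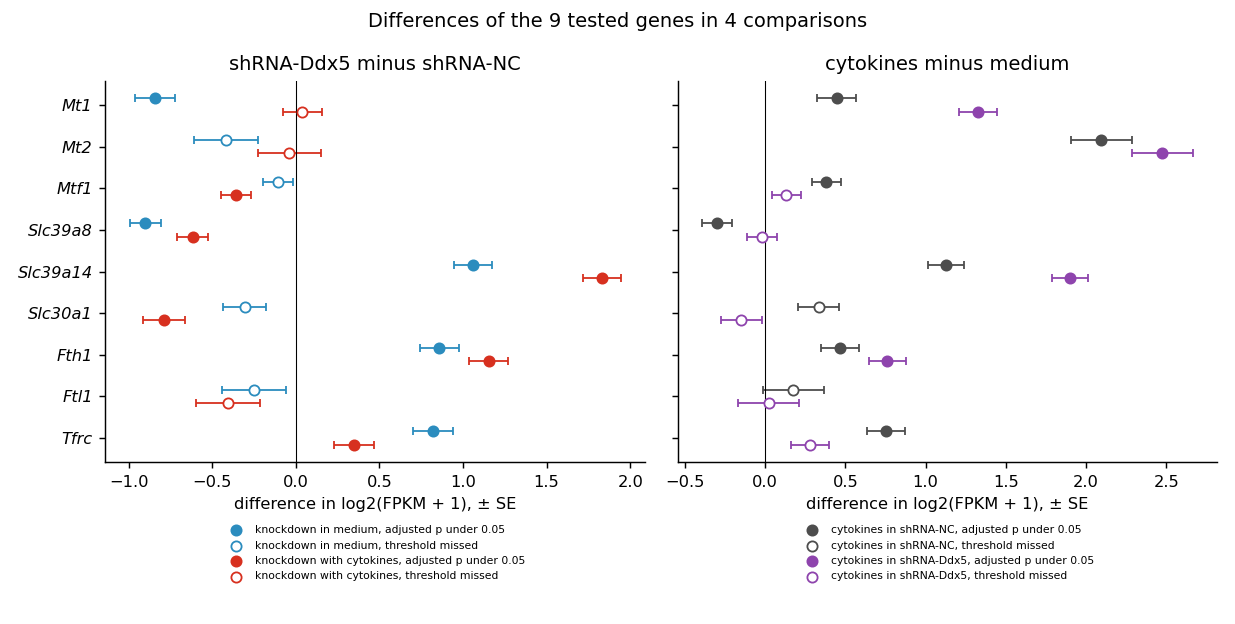
Differences in log2(FPKM + 1) with SE for the 9 tested genes, shRNA-Ddx5 minus shRNA-NC on the left and cytokines minus medium on the right, filled where the adjusted p was below 0.05. Slc39a8 and Slc39a14 lie on opposite sides of 0 on the left, and Mt1 lies at -0.84 in medium and 0.04 with cytokines. Mt2 and Slc39a8 passed the filter only through their high groups, so their filled points show sizes and are not tests.

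The other genes of zinc, iron and copper handling were taken from 8 lists of known function. Of 72 listed genes 51 were tested. The knockdown called 18 up and 8 down in medium and 21 up and 6 down with cytokines, and cytokines called 12 up and 2 down in shRNA-NC and 14 up and 3 down in shRNA-Ddx5. The shares of all tested genes called up were 25.3%, 23.5%, 18.6% and 13.5% in these comparisons, and those called down 21.7%, 22.1%, 15.2% and 13.5%. The median difference of the listed genes was 0.17, 0.21, 0.11 and 0.15 in these comparisons. Where a list is given below with 0 calls in a direction by limma, at most 2 of its genes moved that way at an unadjusted p below 0.05.

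Among the other Slc39a zinc importers, 8 of 12 were tested. The knockdown called 4 up and 0 down in medium and 4 up and 1 down with cytokines, where 25.3% and 23.5% of all tested genes were called up and 21.7% and 22.1% down. Slc39a13, an importer of the early secretory pathway needed for connective tissue, rose from 11.3 ± 2.6 to 24.0 ± 2.5 FPKM in medium (SD, n = 3) by a difference of 1.05 (limma adjusted p = 2.03e-04) and was at 0.76 with cytokines (adjusted p = 0.00161). Slc39a11 rose by 0.93 (adjusted p = 4.14e-05) and 0.75 (adjusted p = 1.80e-04). Slc39a1, a surface importer, rose with cytokines by 0.60 in shRNA-NC and 0.69 in shRNA-Ddx5, whereas Slc39a10 fell by 0.29 in shRNA-NC. The values of Slc39a6 were 0.27 with cytokines in shRNA-NC and -0.21 for the knockdown with cytokines. Of 9 further Slc30a exporters 5 were tested. The knockdown called 0 up and 1 down in each medium, against 47% and 45.6% of all tested genes called in either direction. This was Slc30a7, which loads zinc into the secretory pathway, at -0.63 (limma adjusted p = 0.00169) in medium and -0.80 (adjusted p = 3.78e-04) with cytokines. Cytokines called 0 of these exporters in either line, against 33.8% and 27% of all.

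Of 16 genes of iron uptake and trafficking 13 were tested. The knockdown called 3 up and 2 down in medium and 5 up and 0 down with cytokines, and cytokines called 6 up in shRNA-NC and 8 up in shRNA-Ddx5, with 0 down in either. Of all tested genes, 25.3% and 23.5% were called up on knockdown and 18.6% and 13.5% with cytokines, in the same order. Slc11a2, the divalent metal transporter that moves iron out of endosomes, went from 9.78 ± 0.34 FPKM in shRNA-NC in medium to 34.1 ± 2.1 with cytokines (SD, n = 3), a rise of 1.70 (limma adjusted p = 2.19e-08), and in shRNA-Ddx5 it rose by 1.79. The knockdown raised it by 0.42 in medium and 0.50 with cytokines. Steap1 rose with the knockdown in medium by 0.78, and Pcbp2 and Steap3 fell by 0.35 and 0.34. Lcn2, which binds iron-loaded siderophores, had no fragment in shRNA-NC in medium, and its FPKM with cytokines was 4.84, 20.3 and 3.87 in shRNA-NC and 95.7, 106 and 106 in shRNA-Ddx5. Steap4, a metalloreductase, reached 0.381, 0.816 and 0.339 against 6.68, 6.83 and 7.42 in the same groups. Scara5, a ferritin receptor, was at 1.10 ± 0.10 FPKM in shRNA-Ddx5 against 0.197 ± 0.086 in shRNA-NC in medium (SD, n = 3). Lcn2, Steap4, Scara5 and Hfe passed the filter only through the groups where they were high, so the counts of this list, and those over all lists, support nothing about them and no test is given for these genes. The same library, replicate 2 of shRNA-NC with cytokines, was the highest of its group for Lcn2 and Steap4 as for Slc39a14.

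Among iron sensors 3 of 8 were tested. Aco1, the gene of iron regulatory protein 1, rose on knockdown by 0.51 in medium (limma adjusted p = 5.47e-04) and 0.39 with cytokines (adjusted p = 0.00304). Ireb2, the gene of iron regulatory protein 2, fell by 0.75 (adjusted p = 0.0143) and 0.57 (adjusted p = 0.0497). Neither was called for cytokines in either line. Hepcidin itself was not among the tested genes.

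Of 9 genes of iron oxidation, heme turnover and export 7 were tested, with 3 up and 3 down on knockdown in medium and 4 up and 2 down with cytokines, against 47% and 45.6% of all tested genes called in either direction. Cytokines gave 2 up and 1 down in shRNA-NC and 2 up and 2 down in shRNA-Ddx5, against 33.8% and 27% of all. Hmox1, which opens heme and frees its iron, fell on knockdown by 0.62 in both media (limma adjusted p = 0.0224 and 0.0243), and cytokines raised it by 1.31 and 1.32. Cp, a ferroxidase that works with ferroportin, rose on knockdown by 0.90 and 1.57 and with cytokines by 1.10 in shRNA-NC and 1.77 in shRNA-Ddx5. Abcg2, a heme and drug exporter, rose on knockdown by 0.76 and 0.60 and fell with cytokines by 0.41 and 0.56. Flvcr1 fell on knockdown by 0.39 and 0.82 and with cytokines in shRNA-Ddx5 by 0.54. Hmox2 fell on knockdown in medium by 0.54, and Blvrb rose on knockdown with cytokines by 0.76.

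All 8 genes of iron-sulfur cluster assembly were tested, and the knockdown called 6 up and 0 down in medium and 4 up and 0 down with cytokines, against 25.3% and 23.5% of all tested genes called up. Isca2 rose by 0.89 and 1.02 and Bola3 by 0.74 and 0.70, both with an adjusted p below the threshold in each medium. Cytokines called 2 up and 0 down in shRNA-NC, against 18.6% of all up. Glrx5 rose with them by 0.50 in shRNA-NC and 0.43 in shRNA-Ddx5, and Iscu by 0.39 and 0.29. Of 8 copper genes 7 were tested. The knockdown called 1 up and 1 down in medium and 3 up and 1 down with cytokines, against 47% and 45.6% of all tested genes called. The copper pump Atp7a fell on knockdown by 1.00 in medium (limma adjusted p = 8.37e-04) and 0.75 with cytokines (adjusted p = 0.00506). Commd1 rose on knockdown in medium by 0.39. The copper chaperones Atox1 and Cox17 rose on knockdown with cytokines by 0.52 and 0.51, and Atox1 rose with cytokines in shRNA-Ddx5 by 0.57. No other copper gene was called for cytokines, against 33.8% of all tested genes called in shRNA-NC and 27% in shRNA-Ddx5.

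The genes whose log2 values ran closest to those of the metal genes over the 12 libraries are given as a description, since the 12 points come from 4 groups and share depth and scaling. For Mt1 the closest by Pearson correlation were Pnrc1 (0.987), Rfx5 (0.968), Gch1 (0.965), Ube2e2 and Rab11fip1, and for Mt2 they were H2-K1 (0.984), Gadd45b (0.983), Ttc39c (0.981), Gbp2b and Ier3. For Slc39a14 they were Cd74 (0.995), Tnfrsf9 (0.995), Akr1b3 (0.993), Il6st (0.992) and Ppm1h (0.991). For Fth1 they were Ptgs2os (0.985), Lgals3bp (0.985), Rbpms (0.984), App and Tmem97. For Tfrc they included Anxa1 (0.985), Azin1 (0.984), E2f3 and Sh3kbp1, and for Slc40a1 they were Cbr4 (0.930), St13 (0.918), Brd9, Asb7 and Glo1. Among the 10 genes themselves the highest correlations were those of Slc39a14 with Fth1 (0.950), Mt1 with Mt2 (0.859) and Fth1 with Tfrc (0.842), and the lowest were those of Slc39a8 with Fth1 (-0.865) and Slc39a14 with Slc40a1 (-0.843).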

How the data were processed

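Poly(A) RNA of 12 ATDC5 libraries was analysed, 3 in each of 4 groups taken from the labels. The authors deposited gene-level FPKM. The submitters' processing notes list HISAT2 2.0.5, featureCounts 1.5.0-p3, DESeq2 1.20.0 and mm10, without roles. The gene coordinates are those of GRCm39, which disagrees with mm10, and GRCm39 is used here. Each FPKM multiplied by gene length was a whole number of fragments per library, and the denominators followed median-ratio size factors, so a scaling between libraries is already in them. The authors' methods use DESeq2 on counts. Because the table holds FPKM, limma 3.58.1 in R 4.3.3 (lmFit, contrasts.fit, eBayes with trend, no block) was run on log2(FPKM + 1), with a pseudocount of 1, over 12368 genes. Each medium gave a knockdown contrast and each line a cytokine contrast, with their interaction. Ratios within a library and Slc40a1 were compared by exact two-sided permutation tests. Of 200 genes changed in data simulated for the knockdown in medium, over 12368 genes, 192 (96%) were recovered, with 6 calls among the unchanged genes. The simulation gave all genes the same spread beyond counting error and used changes larger than many reported here. It therefore checks that the fit runs as intended and does not measure its sensitivity in these data.

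Single genes outside the set were named by a rule: from each list and each comparison of groups, up to 2 rises and 2 falls that were largest among called genes whose groups did not overlap, and the 5 genes most correlated with 6 of the set. Genes named for an overlap, for an unadjusted p or as absent markers were added. Some genes that the rule names are not reported here. The genes of the set and the lists were chosen with earlier results of these data known. Promoter windows are from RefSeq (GRCm38.p6) and were matched to GRCm39, and iron response elements were searched in GENCODE vM39 transcripts. The promoter windows of Slc39a14 and Slc40a1 and all protein sequences were not used here. Figures used matplotlib 3.10.9 (Python 3.11.15). Alternatives were other pseudocounts, filters, scalings, weights, library subsets and a replicate block.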

Additional observations from a re-analysis of the deposited data

Results flagged for a closer look

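The response of 2 genes to cytokines differed between the lines by a test of the difference itself, the limma interaction with Benjamini-Hochberg adjustment over 12368 genes. For Mt1 the rise was larger in shRNA-Ddx5 than in shRNA-NC by 0.88 on the log2 scale (SE 0.17, adjusted p = 0.00883), and the call held in all 20 alternatives run, with an adjusted p of at most 0.03. For Slc39a14 the rise was larger by 0.77 (SE 0.16, adjusted p = 0.0133), and the call also held in all 20, with an adjusted p of at most 0.0492, reached with a pseudocount of 0.1. The 0.77 is enlarged by adding 1, which shrinks the rise from the lower shRNA-NC values more. In mean FPKM the rises were 2.67-fold in shRNA-NC and 4.14-fold in shRNA-Ddx5. For Mt1 the 2 lines differed in medium and overlapped with cytokines, whereas for Slc39a14 they were apart in both media.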

How the results depend on the processing

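The log2 differences of the tested genes of the set were recomputed under all alternatives. Of these values, 870 kept their direction and side of the threshold, 13 passed it only in the alternative and 19 lost it. Another 19 changed sign, and 0 of these were called by limma with adjustment before or after. The cause of the sign changes was not tested. Part of the 870 was fixed in advance, so this count does not measure robustness. Leaving out a library of a group not compared cannot change a difference between 2 groups, only its estimated spread. With quantile normalization the difference of Mt1 for the knockdown with cytokines was -0.11, that of Mt2 was 0.015, and Ftl1 was at -0.13 for cytokines in shRNA-NC, -0.045 in shRNA-Ddx5 and 0.086 for the interaction. With scaling to the sum of fragments, Mt1 was at -0.017 for the knockdown with cytokines and Ftl1 at -0.021 for cytokines in shRNA-Ddx5. Leaving out each library in turn, the knockdown difference with cytokines ranged from -0.055 to 0.17 for Mt1 and from -0.14 to 0.053 for Mt2. The cytokine difference of Slc39a8 in shRNA-Ddx5 ranged from -0.046 to 0.011. For Ftl1 the range was -0.0015 to 0.31 in shRNA-NC, -0.11 to 0.22 in shRNA-Ddx5 and -0.29 to 0.042 for the interaction. The small log2 changes of the Tfrc to Fth1 ratio on knockdown in medium and of the Mt2 to Mt1 ratio on knockdown with cytokines also changed sign when single libraries were left out. The number of called genes of the set for cytokines in shRNA-NC was 7, and 4 with quantile normalization. The log2 change of the Mt2 to Mt1 ratio with cytokines in shRNA-NC was 3.71, and 1.65 with 1 added to both values, which pulls low values together by construction. Leaving out each library in turn, the count over all genes ranged from 2219 to 3826 for cytokines in shRNA-Ddx5, with the lowest without shRNA-Ddx5 replicate 3, and from 493 to 1109 for the interaction, with the lowest without shRNA-Ddx5 with cytokines replicate 3. In these runs a group left with 2 libraries borrows its spread from all groups. Replicates of the same number did not deviate together in every pair of groups (mean correlation from -0.270 to 0.268), so the numbers were not taken as pairs. With the replicate block, 687 genes instead of 1016 had a called interaction, 5 genes of the set were called for the knockdown with cytokines instead of 6, Tfrc being lost (0.35, adjusted p = 0.0587), and no other call in the set changed. Mt2, Slc39a8 and Slc40a1 rest on few fragments, so changes in their lowest groups were limited by depth.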
